A study of Mus musculus with 2 samples.

Results

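The genes that set whether a cell enters apoptosis were followed in epithelial cells of the mouse colon after incubation with MIF, read here as the cytokine macrophage migration inhibitory factor, or with PBS, a salt buffer. The mice were C57BL/6, an inbred strain, and 7 weeks old. Both groups share that strain and age, and the labels name no genetic change. Total RNA of each incubation was measured on 1 Affymetrix array, so every difference below is between 2 single arrays, without a spread between samples and without a test. The dose of MIF, the length of the incubation, the isolation of the cells and the number of animals are not stated in the sources used here. The set of genes was a list of 37 members of the BCL2 family, the caspases, the inhibitor of apoptosis (IAP) proteins and their partners. Members were found by the gene symbol of their probe sets, and 32 of the 37 had at least 1 probe set with that single symbol, among 8721 genes named in the table. Bcl2, Bax, Bmf and Tnfrsf10b were not analysed here, nor was Bnip3l under this rule.

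Apoptosis in the mitochondrial pathway is decided by the BCL2 family. BH3-only proteins sense damage and bind the anti-apoptotic members, which otherwise hold BAX and BAK1 in check. Once BAX and BAK1 open the outer mitochondrial membrane, cytochrome c joins APAF1 to activate caspase 9, while DIABLO and HTRA2 are set free and block the IAP proteins. Death receptors reach the same caspases from the cell surface through FADD and caspase 8. In the intestine these steps bear on the steady shedding and replacement of epithelial cells.

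The signals are the authors' processed intensities on a linear scale. A floor was set at a signal of 232, the 40th percentile of all signals. A gene under it on both arrays was not assessed. Each gene is given by its brightest probe set, a set being a group of probes for the same transcript. Levels of different genes come from different probes and were not set against each other. A difference is the log2 signal after MIF less the log2 signal after PBS. Signals are given for PBS first and MIF second. The median signal was 337 and 346, a shift of 0.04 that was left as deposited. All 18 colon epithelial markers in the table, among them Epcam, Cdh1, Vil1 and Cdx2, lay above the floor on both arrays. Their summed signal was 131279 and 127538. Markers of T and NK cells had 2 of 8 genes above the floor on each array, the granule proteases Gzma and Gzmb, with a summed signal over all 8 of 1645 and 938. Cd3g, which encodes a CD3 chain of the T cell receptor complex, lay under the floor, at 85.9 and 35.7. Fibroblast markers summed to 819 and 1978, with 1 of 9 above the floor after PBS and 3 after MIF. No endothelial marker of 4 reached the floor. The summed signals of the T and NK cell and fibroblast markers thus differed between the same 2 arrays as the genes below. The part of these cell types in the differences below was not tested. In RNA from many cells, fewer cells of a type and less RNA per cell cannot be told apart.

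Most apoptosis genes had close signals after MIF and PBS, with 2 exceptions that lay in opposite directions. Pmaip1, which encodes the BH3-only protein NOXA, was 1.41-fold higher in the MIF-incubated cells, and Htra2, which encodes a mitochondrial protease, was 1.42-fold lower. Of the 28 members assessed, 26 lay within 1.2-fold, a range that held 86.9% of the 5837 genes assessed in the whole table. The 1 member at least 1.2-fold higher is set against 6.82% of all genes, and the 1 at least 1.2-fold lower against 6.29%. Both shares of the members were 3.57%, so neither count stood above the background. No member reached 1.5-fold in either direction, a difference seen in 0.634% of all genes upwards and 0.463% downwards. The median log2 difference of the members was -0.015, and that of all assessed genes was -0.011. The median size of a member's difference, sign left aside, was 0.08, against 0.11 for all assessed genes.

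**Figure D1:**
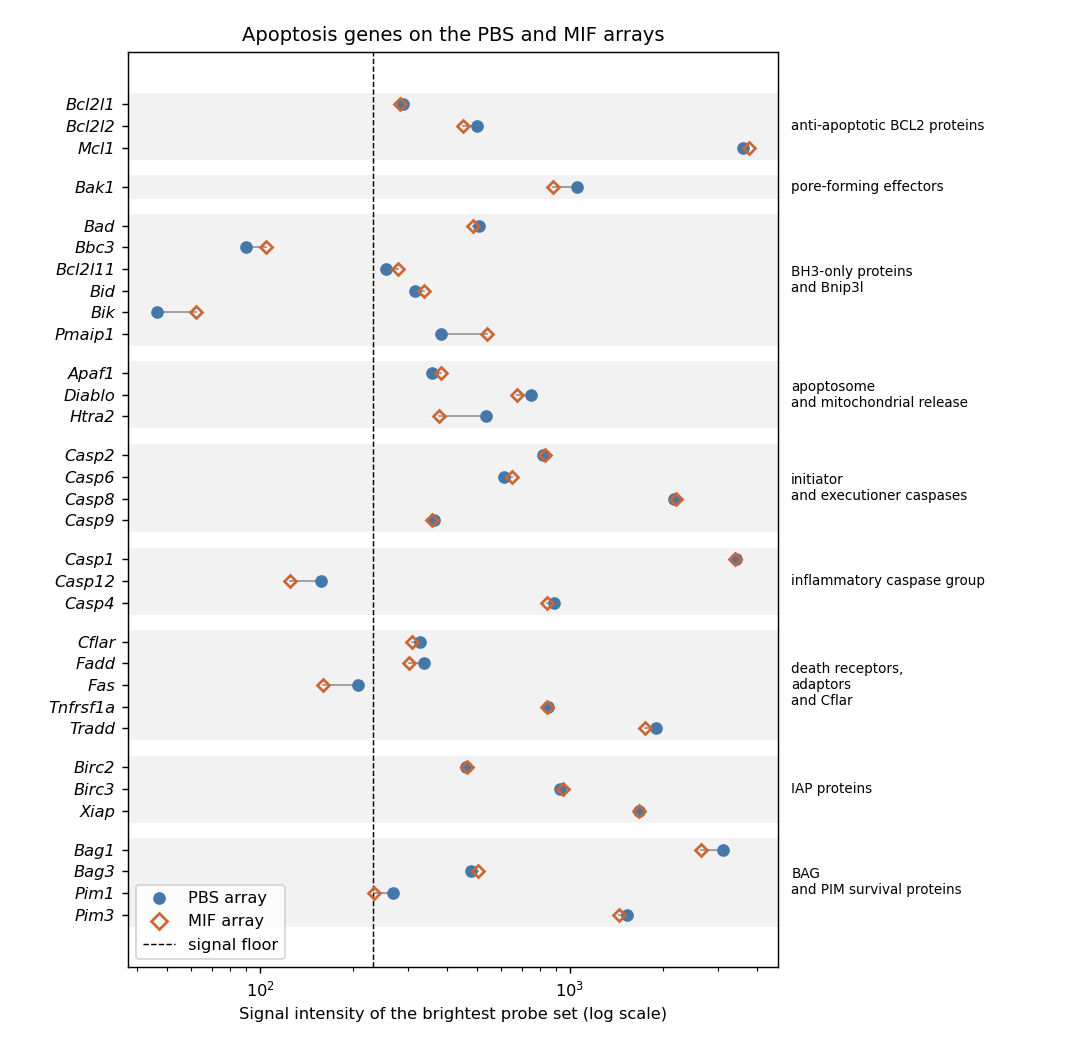
Signal intensity of the brightest probe set of each of the 32 apoptosis genes (log scale) on the PBS array (filled circles) and the MIF array (open diamonds), grouped by role, with the signal floor of 232 as a dashed line. The MIF symbol lies to the right for Pmaip1 and to the left for Htra2, while most other pairs of symbols overlap; Bbc3, Bik, Casp12 and Fas lie under the floor.

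Among the BH3-only genes, Pmaip1 had a signal of 383 with PBS and 539 with MIF. Its log2 difference was 0.50, and 81 of the 5837 assessed genes (1.39%), itself included, were at least as far in that direction. NOXA binds MCL1 with preference and is known to speed its breakdown. Pmaip1 had a single probe set in the table, so no second set bears on this value. The other BH3-only genes above the floor were closer to 0. Bcl2l11, which encodes BIM, a BH3-only protein that binds all the main anti-apoptotic members, had signals of 254 and 278, a difference of 0.13 near the floor. Bid, whose product is cut by caspase 8 and carries the death receptor signal to mitochondria, had 317 and 338, a difference of 0.10. These 3 genes were higher on the MIF array by different amounts, and only Pmaip1 passed 1.2-fold. Bad, whose product is kept inactive by growth factor signalling, had 511 and 487, a difference of -0.07. Its second probe set gave a larger difference of -0.28, from 480 to 397, in the same direction and past 1.2-fold. Bbc3, which encodes the p53 target PUMA, had 90.3 and 105, and Bik had 46.7 and 62.3. Neither reached the floor on any array, and they were not assessed.

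The anti-apoptotic members differed little. Mcl1, whose product is short-lived and is a main survival factor of many epithelial cells, had a signal of 3617 and 3768, a difference of 0.06. The 5 other sets of Mcl1 that passed the floor all went the opposite way, from -0.04 to -0.19. The direction for Mcl1 therefore depended on the probe set, and none of its 6 sets passed 1.2-fold. Bcl2l1, which encodes BCL-XL, had 290 and 284, a difference of -0.03. Bcl2l2, which encodes BCL-W, had 499 and 452, a difference of -0.14. Of the pore-forming effectors, Bak1 had 1051 and 883, a difference of -0.25. At 1.19-fold lower it was the member just short of the 1.2-fold threshold. With both columns set to the same median, which lowers differences above the floor by 0.04, Bak1 and Bag1 passed it. The 3 lower members were then 10.7% of those assessed, where 8.90% of all genes were lower. A second Bak1 probe set stayed under the floor, at 142 and 157.

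Downstream of the mitochondrial pore, Htra2 had a signal of 536 with PBS and 379 with MIF. Its log2 difference was -0.50, and 42 of the 5837 assessed genes (0.720%), itself included, were at least as far in that direction. HTRA2 is a serine protease of the space between the mitochondrial membranes, where it takes part in protein quality control. After its release it binds and cleaves IAP proteins. A second Htra2 probe set also gave a lower signal on the MIF array, with 466 and 352, a difference of -0.40. Both sets carry the array's suffix for probes that match more than 1 transcript. Diablo, whose product SMAC blocks the same IAP proteins, had 751 and 675, a difference of -0.16 in the direction of Htra2 but within 1.2-fold. Apaf1, the scaffold of the apoptosome, had 358 and 383, a difference of 0.10. Htra2, Diablo and Apaf1 thus did not share a direction.

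Htra2 and Pmaip1 both lay in the second of 4 groups of genes ordered by mean signal, which ran from 444 to 790. The SD of the log2 difference over the 1386 genes of that group was 0.19, and 7.79% of its genes were at least 1.2-fold higher and 6.57% at least 1.2-fold lower. The SD over genes was 0.20 in the group with the lowest signals and 0.17 in the group with the highest. Both differences were thus over 2 such SDs from 0, a spread between genes and not between cell preparations. Htra2 and Pmaip1 are the lowest and the highest of the 28 assessed members, so this distance is not separate support for them. With a higher floor, at the 60th percentile of signals, each gene lay under it on 1 array and the differences became bounds of -0.11 for Htra2 and 0.12 for Pmaip1. Without probe sets shared by transcripts or able to cross-hybridise, Htra2 had no value.

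**Figure D2:**
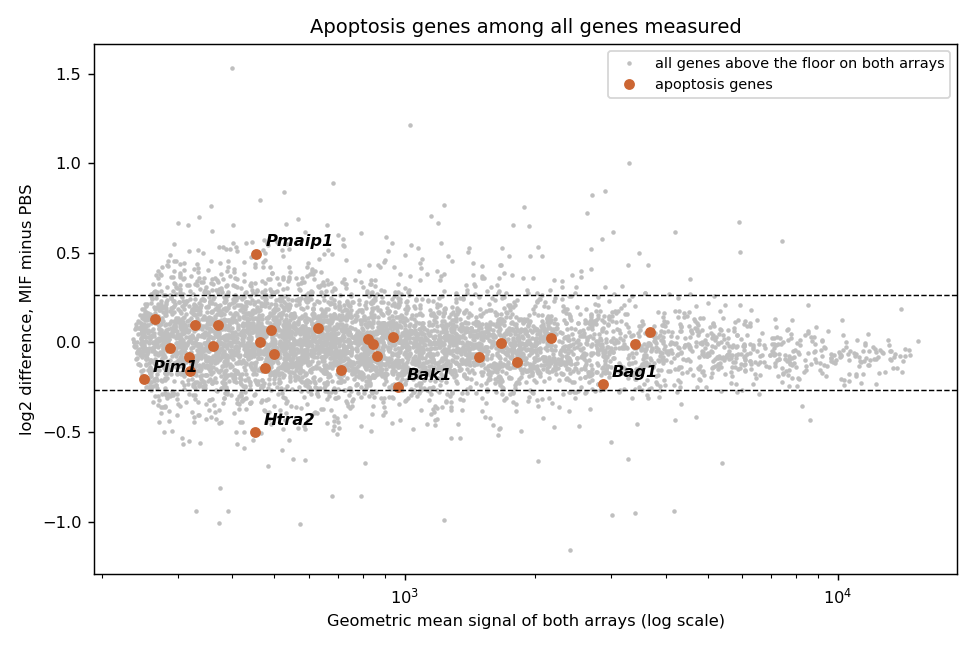
Log2 difference (MIF minus PBS) against the geometric mean signal of both arrays (log scale) for the 5545 genes above the floor on both arrays (grey) and the 28 apoptosis genes among them (orange), with 1.2-fold as dashed lines. Pmaip1 lies above the upper line and Htra2 below the lower one, Bak1 and Bag1 lie just inside the lower line, and the other members lie within the band.

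Genes of the caspases, the proteases that start or carry out the process, differed little between the arrays. Casp8, which starts the death receptor pathway, had 2161 and 2201, a difference of 0.03. Casp9, which starts the mitochondrial pathway, had 364 and 359, a difference of -0.02. Casp2, an initiator linked to stress and DNA damage, had 817 and 830, a difference of 0.02. The executioner gene Casp6 had 614 and 649, a difference of 0.08. All 4 lay within 1.2-fold. In the inflammatory group, Casp1, which matures interleukin 1 beta and interleukin 18 in inflammasomes, had 3419 and 3396, a difference of -0.01. Casp4, which encodes the protease also called caspase 11 in mice and senses bacterial lipopolysaccharide in the cytosol, had 888 and 843, a difference of -0.08. Casp12 lay under the floor on both arrays, at 158 and 125. The 6 assessed caspase genes ran from -0.08 to 0.08.

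The 4 assessed receptor and adaptor genes of the extrinsic pathway were slightly lower on the MIF array by their brightest probe sets, and none passed 1.2-fold. Tnfrsf1a, which encodes TNF receptor 1, had 850 and 843, a difference of -0.01. Tradd, the adaptor at that receptor, had 1888 and 1751, a difference of -0.11, and a second probe set gave -0.01. Fadd, the adaptor that recruits caspase 8, had 338 and 303, a difference of -0.16. Cflar, whose product FLIP competes with caspase 8 for FADD, had 327 and 309, a difference of -0.08. Its other probe sets lay under the floor and were higher on the MIF array, at 195 and 224, at 186 and 189, and at 52.0 and 61.2. The 4 assessed genes of this group had a median of -0.10, and 53.3% of all assessed genes were lower by any amount. Fas, the receptor for FAS ligand, lay under the floor on both arrays, at 206 and 160.

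The IAP genes, whose products hold caspases or their upstream kinases in check, were close to even on their brightest probe sets. Xiap, the direct inhibitor of caspases 3, 7 and 9, had 1673 and 1670. Birc2, which encodes the ubiquitin ligase cIAP1, had 464 and 464. Birc3, which encodes cIAP2 and is a known NF-kB target, had 928 and 949. The 3 log2 differences ran from -0.0025 to 0.03. A second Xiap probe set went apart from the brightest one, with 399 and 492, a difference of 0.30, past 1.2-fold. The even signal of Xiap therefore holds for its brightest probe set, and these 2 sets of the gene disagreed.

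Among the other survival genes, Bag1, whose product is a co-chaperone of HSP70 that binds BCL2, had 3106 and 2644, a difference of -0.23. It was 1.17-fold lower, next after Bak1 among members inside the threshold. Bag3, which is induced by stress and directs proteins to autophagy, had 481 and 504, a difference of 0.07. The PIM kinases phosphorylate and silence BAD. Pim1 had 269 and 233, a difference of -0.20 with the MIF signal at the edge of the floor. Pim3 had 1526 and 1442, a difference of -0.08 on a probe set that can cross-hybridise, while its second set had 442 and 459, a difference of 0.06.

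**Figure D3:**
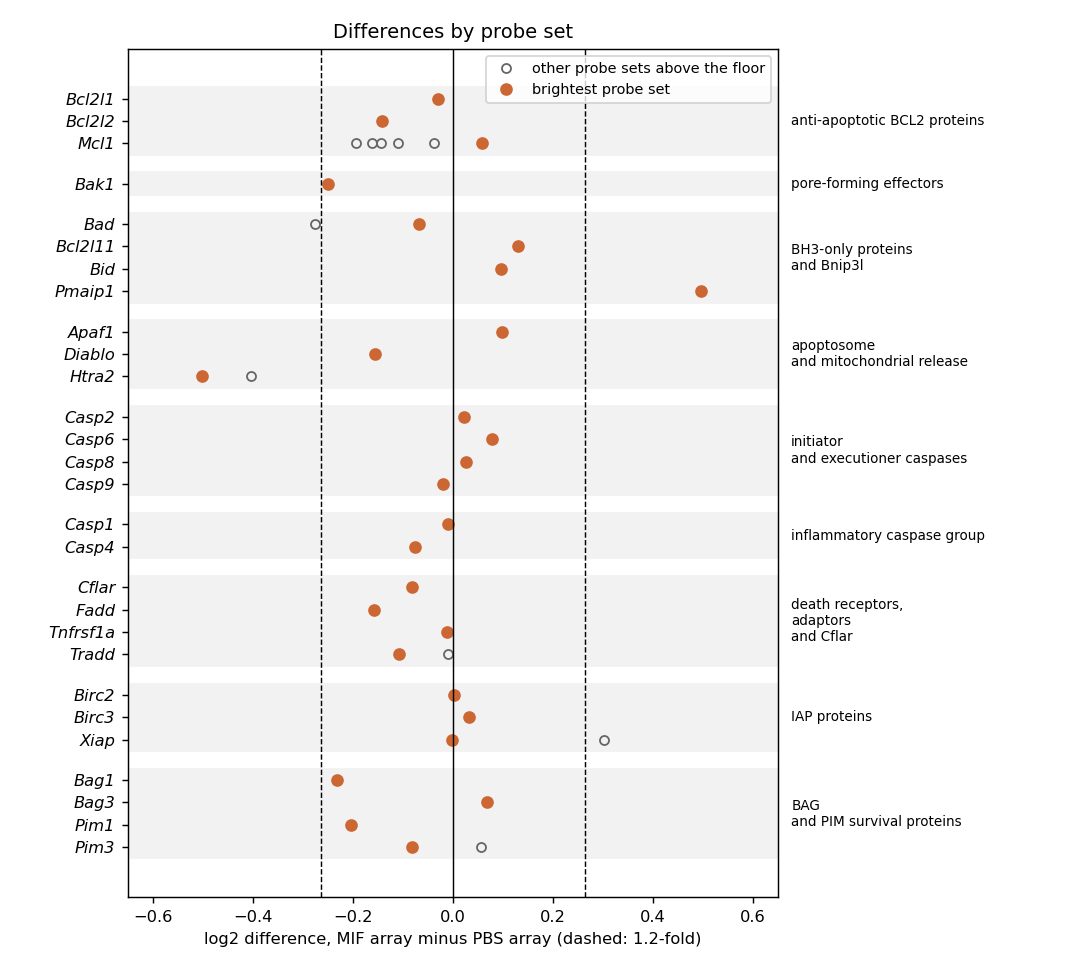
Log2 difference (MIF minus PBS) of the 28 assessed apoptosis genes by role, with the brightest probe set as a filled point, the other probe sets above the floor as open points and 1.2-fold as dashed lines. Both Htra2 sets lie to the left of the threshold, the Pmaip1 point lies to the right, the other 5 Mcl1 sets lie left of 0, the second Bad set lies just past the left threshold and the second Xiap set lies past the right one.

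For 6 members, more than 1 probe set passed the floor with PBS and with MIF, and these genes had 16 such sets in all. The SD between sets of the same gene was 0.11 for these members and 0.15 over the 1800 genes of the table with several sets. Htra2, Bad and Tradd kept 1 direction over their sets, and Mcl1, Xiap and Pim3 did not. Differences as small as those of most members were thus of the size seen between probe sets of 1 gene hybridised to the same RNA. The sign of Birc2, Casp1 and Xiap, whose differences were all under 0.01 in size, changed with quantile normalization or with removal of the trend with intensity. Birc3, Casp2 and Casp8 changed sign only where both columns were set to the same median, a constant shift larger than their differences.

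Other genes of apoptosis and regulated cell death were taken from a list of 76, of which 59 were in the table and 42 were assessed. Their median log2 difference was -0.03. At 1.2-fold, 2 were higher and 3 were lower, or 4.76% and 7.14%, close to the 6.82% and 6.29% of all genes. Pycard, which encodes ASC, the adaptor that joins inflammasome sensors to caspase 1, had 4681 and 7463. It was 1.59-fold higher, the only gene of either list past 1.5-fold on its brightest probe set, and 19 of the 5837 assessed genes were at least as far in that direction. A second Pycard probe set lay under the floor, at 45.1 and 131. Birc6, a very large IAP protein and ubiquitin ligase, was 1.38-fold higher, at 625 and 860. Its other probe sets lay under the floor and went opposite ways, at 79.3 and 50.8 and at 54.9 and 75.7. Ripk3, the kinase of necroptosis, was 1.25-fold lower, at 820 and 655. Birc5, which encodes survivin, an IAP protein that also works in the mitotic chromosomal passenger complex, was 1.23-fold lower, at 1409 and 1146. Dapk3, a death-associated kinase, was 1.22-fold lower, at 424 and 349.

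Mitochondrial factors on that list lay within 1.2-fold on their brightest probe sets. Cycs, for cytochrome c, had 11976 and 11290, a difference of -0.09. Aifm1, for apoptosis-inducing factor, had 1960 and 1679, a difference of -0.22, and the nuclease gene Endog had 454 and 387, a difference of -0.23. A second Endog probe set gave a larger difference of -0.51, from 388 to 273, which is past 1.2-fold. The channel genes Vdac1, Vdac2 and Vdac3 had differences of -0.02, -0.07 and -0.07. Aifm1 and Endog kept their direction under each scaling tried, and Vdac1 and Vdac2 did not, with differences of 0.03 and 0.0070 after quantile normalization. Cycs and Vdac3 kept theirs but shrank to -0.0068 and -0.00022 after quantile normalization. Parp1, the DNA repair enzyme cut by caspases, had 628 and 731, a difference of 0.22, while its 2 other probe sets gave -0.07 and 0.01.

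**Figure D4:**
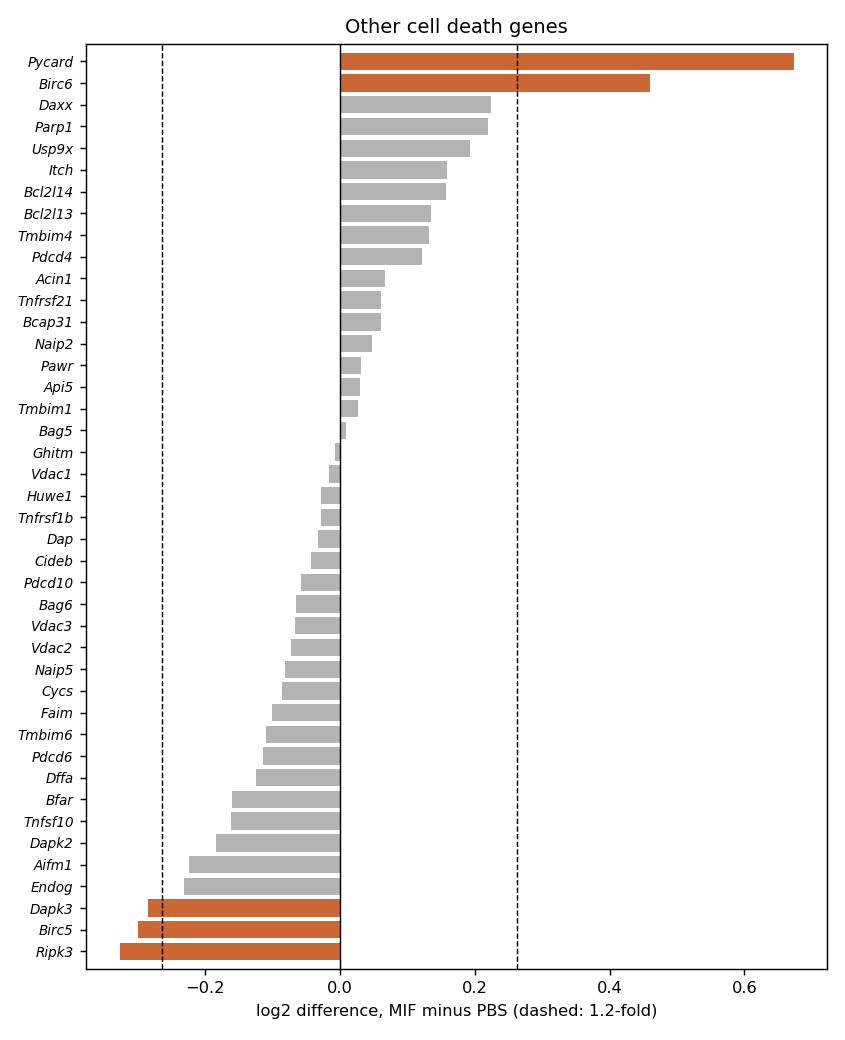
Log2 difference (MIF minus PBS) of the 42 assessed genes of the wider cell death list, ordered by value, with 1.2-fold as dashed lines and the genes past it in orange. Pycard and Birc6 pass the line on the right, and Ripk3, Birc5 and Dapk3 pass it on the left.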

How the data were processed

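The deposited table held the authors' signal intensity of 15340 probe sets on 2 arrays. Per the labels' protocols, RNA was extracted with Trizol and labelled by the standard Affymetrix protocol. Probe summarising, background correction and scaling are not stated in the sources used here. The linear scale was read from the values. Control probe sets (61) were left out. GEO's platform annotation gave 14049 of the other 15279 sets 1 symbol, 490 several and 740 none, and unnamed sets were not used. Symbols were checked by Entrez ID for 14034 sets against the gene table of GRCm38.p6, and 0 changed.

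Where a gene had several probe sets, the one brightest on average (mean log2 signal) was used. Signals under the floor were raised to it. Genes under it on both arrays (2884) were not assessed, and those under it on 1 array (150 on PBS, 142 on MIF) count at a bound. With 1 array per group, a call means a difference of at least 1.2-fold, and precision is limited by the number of arrays. The members, lists and threshold were chosen with earlier results of these data known. The rule for names took every member, and every gene of the wider list past 1.2-fold; the mitochondrial factors and Parp1 were added after their values were seen. Steps were tested on simulated data with a larger planted difference in genes well above the floor. That test does not bear on how reliable calls near 1.2-fold are. The software was Python 3.11.15 with matplotlib 3.10.9, statsmodels 0.14.6, pandas 2.3.3 and numpy 2.4.6.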

Additional observations from a re-analysis of the deposited data

How the results depend on the processing

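No paired analysis was possible because each group has 1 array. The median over members stayed between -0.05 and -0.01 under every alternative run. With quantile normalization it was -0.05 for members and -0.02 for all genes. With the trend with intensity removed it was -0.04 and -0.01. With the columns set to the same median both were -0.05. The count of members at least 1.2-fold lower was 3 with the columns set to the same median (Htra2, Bak1 and Bag1; 10.7% of members and 8.90% of all genes). It was also 3 with the floor at the 20th percentile (9.68% and 7.59%) and with no floor (9.38% and 10.3%), with Htra2, Fas and Casp12 in both. It was 0 of 25 members without probe sets ending in _x_at, _s_at or _a_at, against 5.71% of all genes, and Htra2 has no value there. The count at least 1.2-fold higher was 2 with no floor (Pmaip1 and Bik), or 6.25% of members against 15.6% of all genes. With the floor at the 60th percentile both counts were 0 of 19 members, since Htra2 and Pmaip1 each lay under it on 1 array. Of all genes, 4.94% were then higher and 5.49% lower. At 1.5-fold both counts were 0, against 0.634% of all genes higher and 0.463% lower. At 1.3-fold they were 1 and 1, and the share of all genes at that threshold was not counted. Values of single genes that moved further than 1 SD between probe sets (0.15) were the bounds of Htra2 and Pmaip1 with the higher floor, Bak1 (-0.05), Mcl1 (-0.10), Parp1 (0.05) and Pycard (1.10) with probe sets averaged, and Endog (-0.51) without probe sets ending in _x_at, _s_at or _a_at. Averaging took in probe sets under the floor, among them the second sets of Pycard (45.1 and 131) and Bak1 (142 and 157). It left 23 members assessed. Lower floors and the same median could not move a gene already above the floor by that much.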

Other observations

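Bnip3l, a mitochondrial protein of the BH3-only group that marks mitochondria for removal, was measured by 3 probe sets that the annotation ties to the gene and its pseudogene, so it has no value of its own here. Their signals (PBS, then MIF) were 1385 and 1279, 788 and 755, and 350 and 353, with log2 differences of -0.11, -0.06 and 0.01.

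Pycard was the gene of the cell death lists with the greatest difference. Other genes of inflammasomes and of interleukin 1 were looked up after that value had been seen. The substrate gene Il18 had 4654 and 5120, a difference of 0.14. Nlrp6, an epithelial inflammasome sensor, had 2435 and 2109, a difference of -0.21. Nlrx1 had 341 and 351, a difference of 0.04. Il1rn, which encodes the interleukin 1 receptor antagonist, had 336 and 429, a difference of 0.35. Its other probe sets lay under the floor with PBS, at 230 and 286 and at 193 and 221. Il1b and Aim2 stayed under the floor, at 80.8 and 132 and at 157 and 223. Beside Pycard, Il1rn was the one gene of this group past 1.2-fold, and 3.68% of all assessed genes were at least as far in its direction.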
